A study of Mus musculus with 10 samples.

Results

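The cholesterol synthesis enzyme genes described here are 8 genes chosen by name from the pathway that builds cholesterol from acetyl-CoA: Hmgcs1, Idi1, Fdps, Fdft1, Sqle, Lss, Cyp51 and Dhcr7. They are 8 of 54532 genes in the count tables, and all 8 passed the filter on low counts that left 18329 genes for testing. RNA was sequenced from the whole cochlea, its bone included, of 12-month-old mtKeima mice on a mixed background, with 1 library for each of 10 mice. All the mice, controls too, carried the mtKeima transgene, which makes a pH-dependent fluorescent reporter placed in the mitochondria. Nicotinamide riboside (NR), a precursor of NAD+, was given to 5 of them in the drinking water at 7 mg/ml (24 mM), from 2 months of age and for 10 months. The other 5, the Vehicle mice, drank regular water. The comparison asks whether long-term NR changed the transcript levels of these enzymes in the aged cochlea.

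Cholesterol is made in nearly every cell from acetyl-CoA through mevalonate, the isoprenoids, squalene and lanosterol. The genes of the pathway are known targets of SREBP2, a membrane-bound transcription factor that is cleaved and sent to the nucleus when sterols in the endoplasmic reticulum run low, and that binds sterol regulatory elements near sites of the general factors NF-Y and Sp1. In the cochlea, cholesterol is a main constituent of the myelin of the auditory nerve and shapes the stiffness of the outer hair cell wall.

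The promoters of these genes are shown as background. Whether their motifs bear on the levels in these mice, or on the correlations given after the single genes, was not tested. RefSeq (GRCm38.p6) start sites were at hand for 5 of the 8 genes, and Fdps, Fdft1 and Sqle had no entry. Each run below holds the 250 bases before the start site, read 5′ to 3′ on the gene's strand. Capitals mark 3 motifs searched on both strands: the CCAAT box (CCAAT, bound by NF-Y), the GC box (GGGCGG, bound by Sp1) and a sterol regulatory element (TCACNCCAC, where N is any base). No marked motif overlapped another. The windows are chr13:119690101-119690350 (+ strand) for Hmgcs1, chr13:8885356-8885605 (+ strand) for Idi1, chr10:76531355-76531604 (+ strand) for Lss, chr5:4104698-4104947 (- strand) for Cyp51 and chr7:143829964-143830213 (+ strand) for Dhcr7, which is the third of 3 listed Dhcr7 start sites.
Hmgcs1: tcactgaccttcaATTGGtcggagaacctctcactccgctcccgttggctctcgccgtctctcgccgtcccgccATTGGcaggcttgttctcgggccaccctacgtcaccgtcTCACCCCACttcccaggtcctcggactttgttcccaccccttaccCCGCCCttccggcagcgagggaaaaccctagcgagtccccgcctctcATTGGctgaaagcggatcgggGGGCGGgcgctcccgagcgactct
Idi1: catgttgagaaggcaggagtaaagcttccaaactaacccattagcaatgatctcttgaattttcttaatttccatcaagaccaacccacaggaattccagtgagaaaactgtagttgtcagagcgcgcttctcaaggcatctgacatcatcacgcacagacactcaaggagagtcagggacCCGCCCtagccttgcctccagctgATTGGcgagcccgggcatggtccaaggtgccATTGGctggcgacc
Lss: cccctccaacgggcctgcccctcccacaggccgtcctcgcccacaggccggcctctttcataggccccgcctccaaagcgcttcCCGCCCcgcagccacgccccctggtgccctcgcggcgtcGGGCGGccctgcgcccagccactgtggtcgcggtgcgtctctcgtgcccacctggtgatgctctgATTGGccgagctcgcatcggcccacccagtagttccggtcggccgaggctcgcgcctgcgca
Cyp51: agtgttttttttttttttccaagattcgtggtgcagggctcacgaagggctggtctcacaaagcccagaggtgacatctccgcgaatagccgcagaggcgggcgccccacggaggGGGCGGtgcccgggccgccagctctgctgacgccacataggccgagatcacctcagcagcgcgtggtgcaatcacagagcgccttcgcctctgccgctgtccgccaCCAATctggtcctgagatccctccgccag
Dhcr7: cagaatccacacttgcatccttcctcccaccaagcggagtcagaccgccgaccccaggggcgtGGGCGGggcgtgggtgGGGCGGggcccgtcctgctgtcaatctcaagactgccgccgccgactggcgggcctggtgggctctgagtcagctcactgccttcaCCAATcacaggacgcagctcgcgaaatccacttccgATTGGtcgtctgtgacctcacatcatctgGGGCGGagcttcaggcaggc

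All 5 genes with a listed promoter held a CCAAT box and a GC box in at least 1 of their windows, 7 in all. Of the 32851 windows of this length, 33.8% held a CCAAT box and 32.7% a GC box. These shares are by window, whereas the count of 5 is by gene. The sterol regulatory element letters were found in Hmgcs1 alone, from position -137 to -129 before its start, and in 1.05% of all windows. Hmgcs1 also had the most CCAAT boxes of the printed windows, with 3, and its nearest one lay at -45 to -41. The printed Dhcr7 window held the most marked motifs of its 3. For Dhcr7, the first start site had 1 GC box and no CCAAT box, and the second had neither motif. A match is only a match of letters, and a motif that is not found in this window may lie outside it or be spelled otherwise.

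The libraries held 17060379 to 24419230 counted reads, and the 8 genes together gave 6177 to 9388 of them. All 14 markers of cochlear cells were detected, from 0.0464 to 5.69 CPM (reads of a gene scaled to a common library size) for Slc26a5, the motor protein of outer hair cells, to 2116 to 4207 CPM for Coch, a secreted protein of the inner ear. All 10 libraries went against the label of female mice, with 3158 to 4754 reads on 4 Y-linked genes and 2 to 8 reads on Xist, whereas the methods describe males. In the edgeR quasi-likelihood test across all genes, 0 of 18329 genes (0%) passed an adjusted p of 0.05. At an unadjusted p of 0.05, the rule used in the study, 1780 genes passed (9.71%), 886 of them with more transcript in NR-treated mice (4.83%) and 894 with less (4.88%). DESeq2, run on more genes without the filter on low counts, called 105 genes at an adjusted p of 0.05 and none of the 8.

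None of the 8 genes differed between NR-treated and Vehicle mice at either threshold, against 9.71% of all tested genes at the unadjusted one. The lowest unadjusted p was 0.179 and the lowest adjusted p was 0.661 by edgeR, both for Sqle. The fold changes were small: the log2 fold change lay between -0.096 and 0.11, with a median of 0.062 beside a median of -0.0092 over all tested genes. It was above 0 for 7 of the 8 genes and below 0 for Lss. The levels of the groups overlapped for all 8 genes, as they did for most tested genes. Only 302 of the tested genes (1.65%) had groups that did not overlap, with 0.769% of the tested genes above and 0.878% below the Vehicle range. Because the tissue was whole cochlea, fewer cells of a type and less RNA per cell cannot be told apart in any of these levels.

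**Figure D1:**
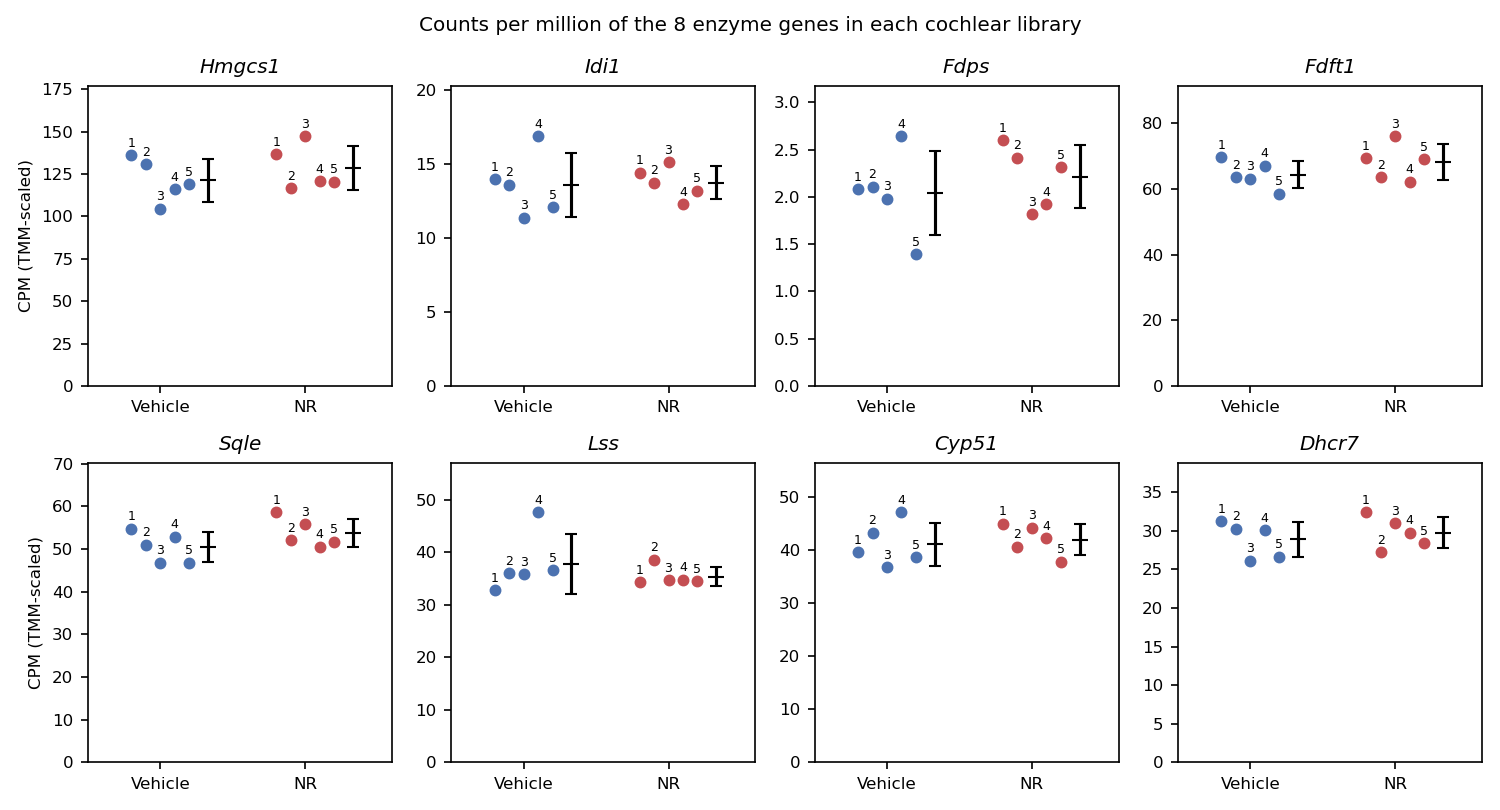
Level of each of the 8 genes in each library, in TMM-scaled CPM on a linear axis from 0. Points are mice, numbered by replicate, blue for Vehicle and red for NR, and the black bar is the mean with the SD of 5 mice. In all 8 panels the groups overlap, and the Lss level of Vehicle mouse 4 (47.6 CPM) stands above the other 9.

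Hmgcs1 (ENSMUSG00000093930, mm10 chr13:119690379-119708260, + strand) encodes the cytosolic HMG-CoA synthase, which makes HMG-CoA on the way to mevalonate. Its level was 137, 117, 147, 121 and 121 CPM in NR-treated mice 1 to 5 and 136, 131, 105, 116 and 119 CPM in Vehicle mice 1 to 5. NR mice 3 and 1 were above the highest Vehicle mouse, Vehicle mouse 3 was the lowest of all, and the other mice of both groups lay in between. The means were 129 ± 13.1 and 121 ± 12.5 CPM (SD, n = 5 each). The log2 fold change was 0.083 (SE 0.086, adjusted p = 0.762 by edgeR), and its 95% interval ran from a change of -7.08% to one of 20.8%. An exact two-sided permutation test of the mean log2 level gave p = 0.365. In the longest coding mRNA of Hmgcs1, 13.6% of the 50-base windows also occur in Gm48342, a gene model on the opposite strand.

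Idi1 (ENSMUSG00000058258, chr13:8885501-8892451, + strand) encodes the isomerase that interconverts the isoprenoid building blocks isopentenyl and dimethylallyl diphosphate. It was measured at 14.4, 13.7, 15.1, 12.3 and 13.2 CPM in the NR group and at 13.9, 13.6, 11.4, 16.9 and 12.1 CPM in the Vehicle group. The Vehicle group held both the highest mouse (4) and the lowest (3), so its range enclosed that of the NR group. Mean levels were 13.7 ± 1.09 and 13.6 ± 2.13 CPM (SD, n = 5 each), a log2 fold change of 0.018 (SE 0.11, adjusted p = 0.971 by edgeR; exact permutation p = 0.802). The interval of the change reached from -15.0% to 20.6%. The small difference turned below 0 when NR mouse 3, Vehicle mouse 3 or Vehicle mouse 5 was left out. In the longest coding mRNA of Idi1, 30.5% of the 50-base windows also occur in other gene models. Reads from such windows may be missing from its count.

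Fdps (ENSMUSG00000059743, chr3:89093588-89101959, - strand) encodes farnesyl diphosphate synthase, at the branch to sterols, ubiquinone, dolichol and protein prenylation. Only 30 to 60 reads per library were assigned to it, or 2.6, 2.42, 1.82, 1.92 and 2.32 CPM with NR and 2.09, 2.11, 1.98, 2.65 and 1.39 CPM with Vehicle. The highest and the lowest mouse were both Vehicle mice (4 and 5). Of the bases of its GENCODE mRNA, 81.3% lie under Gm43738, a gene model on the same strand, and 86.4% of its 50-base windows occur in another gene. Reads on more than 1 gene or at several places were not counted, and Gm43738 had 0 reads in all 10 libraries. The Fdps value is therefore the count of the reads that could be assigned to it alone, and its level is uncertain. On these reads the group means were 2.21 ± 0.333 and 2.04 ± 0.446 CPM (SD, n = 5 each). The log2 fold change was 0.11 (SE 0.19, adjusted p = 0.857 by edgeR; exact permutation p = 0.5). Its interval, from -19.3% to 45.1%, was the widest of the 8, and the value ranged from 0.0042 without Vehicle mouse 5 to 0.23 without Vehicle mouse 4.

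Fdft1 (ENSMUSG00000021273, chr14:63145150-63179578, - strand) encodes squalene synthase, which joins farnesyl units in the first step given over to sterols. NR-treated mice had 69.3, 63.7, 76.1, 62.2 and 69.0 CPM, and Vehicle mice had 69.6, 63.5, 63.1, 67.1 and 58.6 CPM. NR mouse 3 was the highest and Vehicle mouse 5 the lowest, and the other 8 mice were mixed between the groups. The means of 68.1 ± 5.49 and 64.4 ± 4.22 CPM (SD, n = 5 each) gave a log2 fold change of 0.081 (SE 0.067, adjusted p = 0.706 by edgeR; exact permutation p = 0.262), with an interval from -4.57% to 17.2%. Its mRNA overlaps Ctsb, a cathepsin gene on the opposite strand, over 20.9% of its bases, and reads were counted without strand. Ctsb was read at 955 to 1292 CPM, with a log2 fold change of -0.060 that did not pass the unadjusted threshold.

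Sqle (ENSMUSG00000022351, chr15:59315077-59331192, + strand) encodes squalene epoxidase, a rate-limiting enzyme of the sterol part of the pathway. The NR-treated mice were at 58.5, 52.1, 55.9, 50.5 and 51.7 CPM and the Vehicle mice at 54.8, 51.0, 46.8, 52.9 and 46.8 CPM. All 5 NR-treated mice were above the Vehicle mean and 2 of them were above the highest Vehicle mouse, but 3 lay among the Vehicle values. Sqle had the smallest spread within groups of the 8 genes, with an SD of 0.096 on the log2 scale. Its means were 53.8 ± 3.34 and 50.4 ± 3.59 CPM (SD, n = 5 each) and the log2 fold change was 0.092 (SE 0.064, adjusted p = 0.661 by edgeR; exact permutation p = 0.167). The interval extended from -3.34% to 17.6%. No other gene overlaps the longest coding mRNA of Sqle (2758 bases) or shares a 50-base window with it. The counted exons merge to 5546 bases, and the rest of them was not examined for sharing.

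Lss (ENSMUSG00000033105, chr10:76531588-76557138, + strand) encodes lanosterol synthase, which folds squalene epoxide into the first sterol. It was found at 34.3, 38.6, 34.7, 34.8 and 34.5 CPM in the NR group and at 32.8, 36.0, 35.9, 47.6 and 36.6 CPM in the Vehicle group. Vehicle mouse 4 stood above all the others, while 4 of the 5 NR-treated mice were almost level with each other. The means were 35.3 ± 1.81 and 37.8 ± 5.68 CPM (SD, n = 5 each), and only 1 NR-treated mouse was above the Vehicle mean. The log2 fold change of -0.096 (SE 0.093, adjusted p = 0.749 by edgeR; exact permutation p = 0.548) had an interval from -18.9% to 7.92%, and it was 0.0038 without Vehicle mouse 4. That library also had the highest summed level of 8 markers of the stria vascularis, at 3056 CPM against 934 to 2152 CPM in the other 9. Of the 12 marker lists summed, it was also the highest for astrocytes (761 CPM) and B cells (359 CPM). It was the lowest for bone (260 CPM), erythroid cells (4110 CPM) and muscle (17.9 CPM). The part of any of these markers in the Lss value was not tested.

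Cyp51 (ENSMUSG00000001467, chr5:4081145-4104746, - strand) encodes lanosterol 14-alpha-demethylase, the cytochrome P450 of the pathway. Levels were 45.0, 40.7, 44.2, 42.3 and 37.8 CPM with NR and 39.6, 43.3, 36.7, 47.1 and 38.6 CPM with Vehicle. The range of the Vehicle group, from mouse 3 to mouse 4, enclosed every NR-treated mouse. Group means of 42.0 ± 2.88 and 41.1 ± 4.12 CPM (SD, n = 5 each) gave a log2 fold change of 0.032 (SE 0.078, adjusted p = 0.904 by edgeR; exact permutation p = 0.659). The change lay within an interval of -9.16% to 15.1%.

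Dhcr7 (ENSMUSG00000058454, chr7:143823145-143848410, + strand) encodes 7-dehydrocholesterol reductase, which makes cholesterol in a last step of the pathway and is mutated in Smith-Lemli-Opitz syndrome. The 5 NR-treated mice gave 32.4, 27.2, 31.0, 29.8 and 28.4 CPM, and the 5 Vehicle mice gave 31.3, 30.3, 26.1, 30.1 and 26.7 CPM. NR mouse 1 was the highest, Vehicle mice 3 and 5 were the lowest, and the rest overlapped. From means of 29.8 ± 2.03 and 28.9 ± 2.33 CPM (SD, n = 5 each), the log2 fold change was 0.043 (SE 0.073, adjusted p = 0.857 by edgeR; exact permutation p = 0.516). Its interval ran from -7.86% to 15.3%. Like that of Sqle, its longest coding mRNA (2815 bases) shares no bases with another gene. The counted exons of Dhcr7 merge to 5817 bases, and the rest was not examined.

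The intervals limit how large a change these 10 mice leave possible. Apart from Fdps, no upper limit exceeded the 20.8% of Hmgcs1 and no lower limit passed the 18.9% decrease of Lss. A p that misses the threshold does not show that the groups were equal, and changes inside these intervals remain possible. The spread between mice of a group was small, with SDs of log2 CPM from 0.096 for Sqle to 0.27 for Fdps and a median of 0.14, beside 0.19 over all tested genes.

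**Figure D2:**
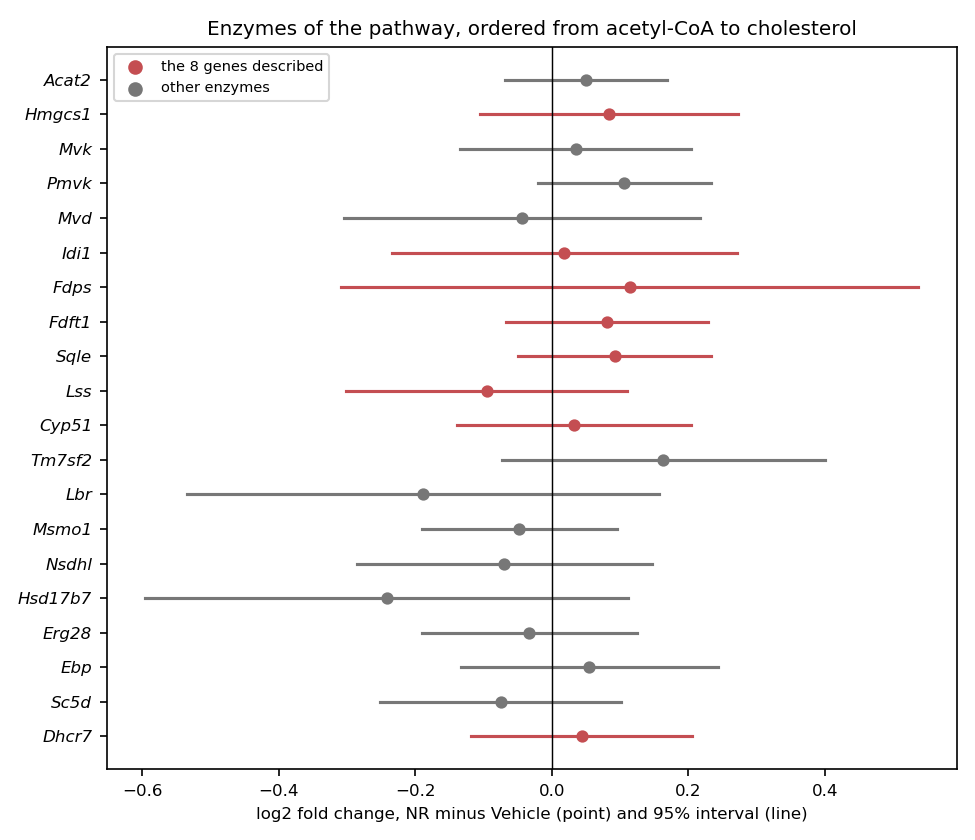
Log2 fold change between NR-treated and Vehicle mice (point) with its 95% interval (line), for the 8 genes described (red) and 12 other enzymes (grey), in pathway order from top to bottom. Each of the 20 intervals includes 0, and that of Fdps, with 30 to 60 reads per library, is the widest among the red ones.

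Compared per kilobase of gene length, as the levels of different genes need to be, the 8 genes covered a wide range. Hmgcs1 was the highest, with a median over the 10 libraries of 26.3 CPM per kilobase, followed by Fdft1 at 15.5. Cyp51 and Sqle came next at 9.39 and 9.36 CPM per kilobase. By this length the pair could not be ordered, with Cyp51 above Sqle in 4 of 10 libraries. Dhcr7 followed at 5.14, Idi1 at 3.90 and Lss at 3.27 CPM per kilobase. The ranges of Dhcr7 and Idi1 overlapped although Dhcr7 was the higher in 10 of 10 libraries, and Idi1 was above Lss in 9 of 10. Fdps was the lowest at 0.498 CPM per kilobase, below every value of the other genes, with the limit on its assigned reads given above. The lengths are those in the count tables, which merge all exons of a gene (10787 bases for Lss), so genes with long or rarely used exons come out lower. The longest coding mRNA has 4667 bases for Lss and 3027 for Idi1, whose merged length is 3505. Sqle has 2758 bases by mRNA and 5546 merged, and Cyp51 has 3931 and 4415. The order of several genes, Idi1 and Lss and Cyp51 and Sqle among them, therefore depends on the length used.

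Several of the genes varied together from mouse to mouse, whichever group the mouse was in. NR mouse 1 was among the 3 highest mice for 7 of the 8 genes and NR mouse 3 for 6 of them. Vehicle mouse 4 was the highest of all for 4 genes (Idi1, Fdps, Lss and Cyp51), whereas Vehicle mouse 3 was the lowest for 5. Vehicle mouse 5 was among the 3 lowest for 6 genes. The summed level of the 8 genes was 355 to 406 CPM (median 358) in NR-treated mice and 327 to 380 CPM (median 371) in Vehicle mice, so the medians and the maxima of the groups differed in opposite directions.

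Of the 28 pairs of genes, 23 had a positive Pearson correlation of log2 CPM over the 10 libraries, and 4 passed an adjusted p of 0.05 in a permutation test. The highest was between Sqle and Dhcr7 (r = 0.87, Spearman's rho = 0.842, permutation p = 0.00101 for r and 0.00392 for rho, adjusted p = 0.0283 and 0.0323). It was 0.742 without the 2 libraries farthest from the median Sqle level and 0.891 for deviations from the group means (adjusted permutation p = 0.0473). That p lies close to the threshold and came from permuting the deviations over all 10 libraries, not within groups. Sqle and Dhcr7 are also the 2 genes whose longest coding mRNA shares no bases with any other gene, though their other counted exons were not examined. Hmgcs1 and Dhcr7 followed with r = 0.82 (rho = 0.830, permutation p = 0.00377 and 0.00462, adjusted p = 0.0370 and 0.0323), then Idi1 and Cyp51 with r = 0.81 (rho = 0.818, permutation p = 0.00436 and 0.00578, adjusted p = 0.0370 and 0.0324). Fdft1 and Sqle had r = 0.80 (rho = 0.891, permutation p = 0.00528 and 0.00111, adjusted p = 0.0370 and 0.0155). Without the 2 farthest libraries these were 0.772, 0.559 and 0.735, with the largest drop for Idi1 and Cyp51. For deviations from the group means, none of the 3 passed the adjusted threshold (adjusted p = 0.0554, 0.0554 and 0.0712). By rank, 5 pairs passed, the fifth being Idi1 and Sqle (rho = 0.903, adjusted p = 0.0155; r = 0.73, permutation p = 0.0176 and 0.000830, adjusted p = 0.0820 for r). How often pairs of other tested genes reach such values in these 10 libraries was not examined.

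Lss stood apart in these correlations, with 4 of its 7 pairs below 0 and a median r of -0.13, whereas 20 of the 21 pairs without Lss were above 0, with a median r of 0.64. The lowest value was between Hmgcs1 and Lss (r = -0.44, rho = -0.697, permutation p = 0.208 and 0.0306, adjusted p = 0.301 and 0.0942), and it was -0.637 without the 2 libraries farthest from the median Hmgcs1 level. The 3 positive pairs were all lower when 2 libraries were left out, and all but Fdps and Lss changed sign. Idi1 and Lss went from r = 0.51 to -0.258 without the 2 libraries farthest from the median Idi1 level. Lss and Cyp51 went from 0.46 to -0.173 without the 2 farthest in Lss, and Fdps and Lss from 0.35 to 0.200 without those farthest in Fdps. None of the 7 pairs with Lss passed the adjusted threshold, and whether they differ from the other pairs was not tested. All points come from the same 10 libraries, and whole-cochlea RNA shares its mixture of cells across the genes.

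**Figure D3:**
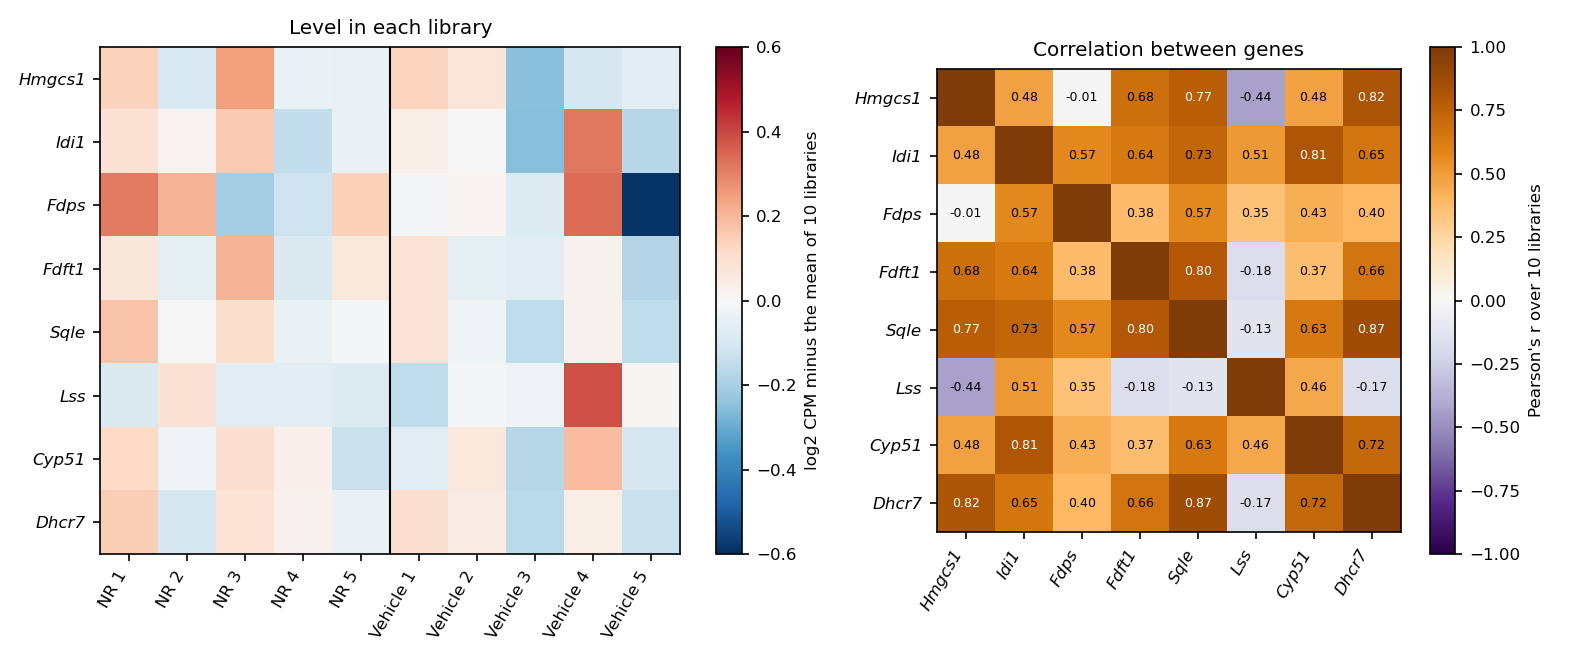
Left, log2 CPM of each gene in each library minus the mean of that gene over the 10 libraries (colour scale), with NR and Vehicle mice separated by the line. Right, Pearson's r between each pair of genes over the 10 libraries. NR mouse 1 is above the mean for most genes and Vehicle mouse 3 below it, and Lss has 4 negative values of r among its 7.

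The tested genes most like the 8, by Pearson's r of log2 CPM with the mean standardized level of the 8 over the 10 libraries, are given as a description. They were Tcp10b (r = 0.949), Smad2 (0.919), Klk1b27 (0.901), Dgkb (0.898), Nab1 (0.897), Snx18 (0.877), Zfp597 (0.872), Igkv6-23 (0.867), Sptlc2 (0.866) and Stxbp6 (0.860). Tcp10b and Klk1b27 averaged only 0.507 and 0.477 CPM. By the same measure, the 14 other enzymes of the pathway had a median r of 0.38, and 4 of them (28.6%) exceeded 0.5, compared with a median of 0.026 and 6.96% over all tested genes. Among 19 genes of cholesterol uptake, transport and export, the median was 0.23 and 4 (21.1%) exceeded 0.5. The median was -0.057 for 15 genes that control the pathway, and 0 of these exceeded 0.5. In the lists of the non-sterol branches and of enzymes that turn cholesterol into oxysterols, bile acids or steroids, 0 tested genes did.

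The other 14 enzymes of the pathway were measured in the same libraries, and all were tested. Of these, 7 had a log2 fold change above 0 and 7 below it, with a median of -0.011, and 0 passed either threshold. In a list of genes of the branches to dolichol, ubiquinone and prenylated proteins, which also holds the isomerase gene Idi2, 7 of 8 genes were tested (all but Idi2, with 0 to 4 reads per library), 6 with a log2 fold change above 0 and 1 below, and 0 passed either threshold.

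Among 15 genes that control the pathway, all tested, 4 had a log2 fold change above 0 and 11 below, with a median of -0.041. Srebf2, which encodes SREBP2, was nearly the same in both groups at 219 ± 9.93 CPM with NR and 215 ± 23.2 CPM with Vehicle (SD, n = 5 each), a log2 fold change of 0.026 (SE 0.073, adjusted p = 0.921 by edgeR). Insig1, which holds the SREBPs in the endoplasmic reticulum and is itself a target of theirs, had a log2 fold change of -0.16 (SE 0.11, adjusted p = 0.661 by edgeR). Srebf1, the gene of the SREBP1 forms that mostly drive fatty acid synthesis, passed the unadjusted threshold alone. It was at 262 ± 28.4 CPM in NR-treated and 325 ± 53.4 CPM in Vehicle mice (SD, n = 5 each), with a log2 fold change of -0.31 (SE 0.12, unadjusted p = 0.0210, adjusted p = 0.466 by edgeR), and the exact permutation test gave p = 0.0635. Srebf1 no longer passed without NR mouse 1, 3 or 5 or Vehicle mouse 3 or 4 (unadjusted p up to 0.0670 by edgeR).

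Of 19 genes of cholesterol uptake, transport and export, 4 had a log2 fold change above 0 and 15 below, with a median of -0.051. Mylip, a ubiquitin ligase that limits lipoprotein uptake, passed the unadjusted threshold with 65.6 ± 4.48 CPM in NR-treated and 74.3 ± 6.14 CPM in Vehicle mice (SD, n = 5 each) and a log2 fold change of -0.18 (SE 0.069, unadjusted p = 0.0236, adjusted p = 0.476 by edgeR). Among the enzymes that turn cholesterol into oxysterols, bile acids or steroids, 6 of 8 were tested, and Cyp11a1, which starts steroid hormone synthesis, passed the unadjusted threshold at 17 to 66 reads per library. Its log2 fold change was -0.63 (SE 0.27, unadjusted p = 0.0405, adjusted p = 0.498 by edgeR). The exact permutation test gave p = 0.0556 for Mylip and 0.0476 for Cyp11a1. Mylip no longer passed without NR mouse 3 or 4 or Vehicle mouse 3, 4 or 5 (unadjusted p up to 0.0780 by edgeR), nor with library totals in place of TMM (0.0572), and Cyp11a1 without NR mouse 1 or 2 or Vehicle mouse 1, 2 or 4 (up to 0.0911). In all, 3 of 61 tested genes in these 5 lists passed the unadjusted threshold, all lower in NR-treated mice, against 4.88% of all tested genes in that direction, and 0 passed the adjusted one.

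**Figure D4:**
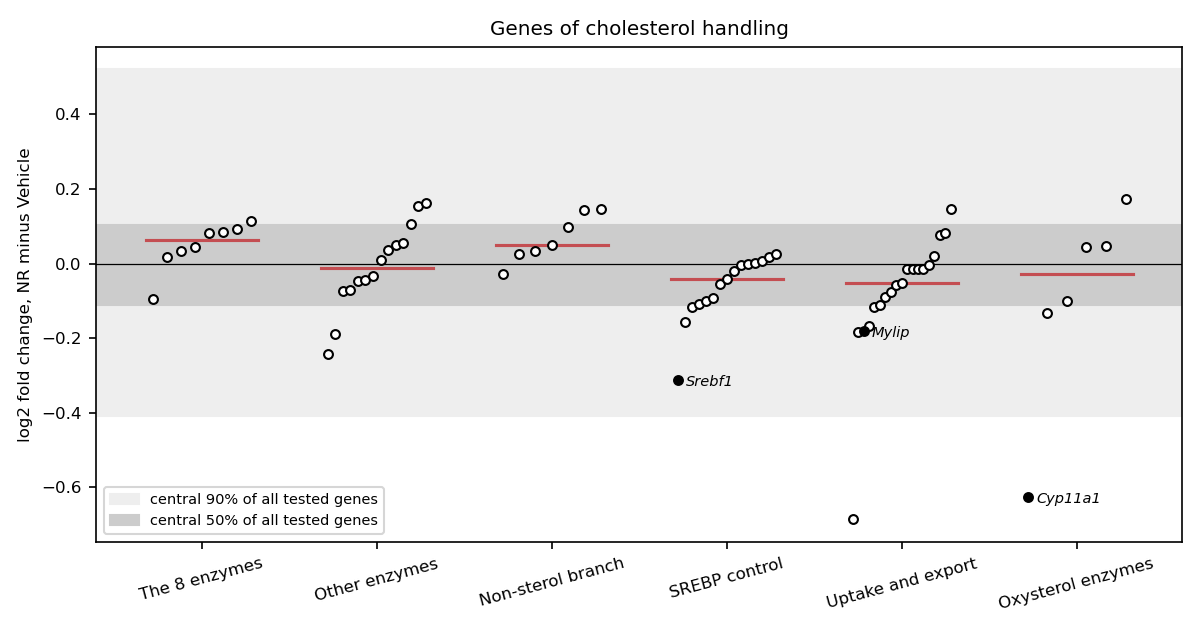
Log2 fold change between NR-treated and Vehicle mice for each tested gene of the 6 lists (points, sorted within a list), with the median of each list as a red line and grey bands for the central 50% and 90% of all tested genes. Filled points have an unadjusted p of 0.05 or below (Srebf1, Mylip and Cyp11a1), and the 8 enzymes lie between -0.096 and 0.11, with no filled point.

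Marker genes of other cells of the cochlea and its surroundings differed between the libraries. The marker lists were chosen with earlier results of these data known, so their counts are a description and not a test. The summed level of 12 Schwann cell and myelin markers, which belong to a tissue rich in cholesterol, was 4410 to 6429 CPM in NR-treated and 4538 to 5748 CPM in Vehicle mice. For these, 9 log2 fold changes were above 0 and 3 below. The 10 oligodendrocyte markers summed to 2462 to 3230 CPM in NR-treated and 2238 to 3280 CPM in Vehicle mice. Among the 9 oligodendrocyte markers tested, 3 log2 fold changes were above 0 and 6 below. The summed level of 10 adipocyte markers did not overlap between the groups, with 128 to 310 CPM in NR-treated and 78.2 to 116 CPM in Vehicle mice. Of these, 9 were tested, all with a log2 fold change above 0, and 6 passed the unadjusted threshold, against 4.83% of all tested genes in that direction. Muscle markers reached 931 CPM in NR mouse 3 and 691 CPM in NR mouse 5 and were at 17.9 to 95.9 CPM in the other 8 libraries, and 7 of 9 tested passed the unadjusted threshold as higher. The 8 neuron markers all had a log2 fold change above 0, and 3 passed, with sums of 3710 to 4293 CPM in NR-treated and 2448 to 3875 CPM in Vehicle mice. The 14 cochlear markers summed to 4113 to 6169 CPM in NR-treated and 4505 to 8258 CPM in Vehicle mice, all 14 with a log2 fold change below 0 and 8 of them past the unadjusted threshold, against 4.88% of all tested genes in that direction. The 8 stria markers, at 934 to 1551 CPM in NR-treated and 1463 to 3056 CPM in Vehicle mice, were all below 0 as well, and 6 passed. None of the genes in these lists passed the adjusted threshold by edgeR, but neither did any of the 18329 tested genes, so this does not set the lists apart. The part of these differences in the levels of the 8 enzymes was not tested.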

How the data were processed

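Cochlear RNA from 10 mice was sequenced as poly(A) libraries by the authors, who trimmed reads with fastp, aligned them to mm10 with STAR 2.6.1d and deposited raw counts per gene made with featureCounts 1.5.0. The annotation release is not given in the sources used here. By default this counter ignores strand and leaves out reads on more than 1 gene or at several places. Date-like symbols (11) were restored by gene ID.

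Counts were tested with edgeR 4.0.16 (R 4.3.3; TMM scaling, filterByExpr, quasi-likelihood test, 5 NR against 5 Vehicle, no covariate), with p-values adjusted by Benjamini-Hochberg over 18329 genes. CPM are TMM-scaled. An SE is the log2 fold change over the square root of F, and intervals are 95%. Exact permutation tests were two-sided over 252 labelings, with a smallest possible p of 0.00794. Correlations used log2 CPM with a prior count of 2 and 100000 permutations, adjusted over 28 pairs. Deviations from the group means were permuted in the same way, over all 10 libraries and not within groups. Alternatives were DESeq2 1.42.0, other scalings and filters, a replicate block and leaving out each library. Simulated counts were used to test the scripts. Total counts of 17060379 to 24419230 per library and 30 to 3408 reads for each of the 8 genes set the counting precision. Promoters and motifs came from RefSeq, and overlaps of exons from GENCODE.

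Named genes were the 8, a few fixed pathway genes (Srebf2 and Insig1 among them) whatever their values, listed pathway genes with an unadjusted p of 0.05 or below, and the 10 genes most like the 8. The genes and lists were chosen with earlier results of these data known. Some of the fixed genes are not reported here. The deposited tables held no fold changes or p-values. The summed marker lists printed for both groups are those of Schwann cells, oligodendrocytes, adipocytes, muscle, neurons, stria and cochlea. Those of astrocytes, B cells, bone and erythroid cells are printed for Vehicle mouse 4 alone.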

Additional observations from a re-analysis of the deposited data

Results flagged for a closer look

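In both groups, 1 mouse lay far from the other 4 in the level of Lss. NR mouse 2 had 38.6 CPM beside 34.3 to 34.8 CPM in the other NR-treated mice, and Vehicle mouse 4 had 47.6 CPM beside 32.8 to 36.6 CPM in the other Vehicle mice. These were 2 of 26 sets of 5 values examined by Dixon's test, which flags about 1 in 20 by chance.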

How the results depend on the processing

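None of the 8 enzymes passed an adjusted p of 0.05 under any alternative, and the lowest adjusted p among them ranged from 0.446 to 0.840. With 1 library left out, the log2 fold change ranged from -0.025 to 0.11 for Idi1 and from -0.14 to 0.0038 for Lss, including -0.0057 (without NR mouse 3), -0.025 (without Vehicle mouse 3) and -0.021 (without Vehicle mouse 5) for Idi1 and 0.0038 (without Vehicle mouse 4) for Lss. It ranged from -0.011 to 0.089 for Srebf2 (below 0 without Vehicle mouse 5). It kept its sign but moved by over 1.5 times, at its extremes, for Hmgcs1 (0.041 without NR mouse 3 to 0.13 without Vehicle mouse 1), Fdft1 (0.048 without Vehicle mouse 5), Cyp51 (0.0091 without Vehicle mouse 3 to 0.090 without Vehicle mouse 4), Dhcr7 (0.016 without Vehicle mouse 5 to 0.082 without NR mouse 2) and Fdps (0.0042 without Vehicle mouse 5 to 0.23 without Vehicle mouse 4), with none called. The cause was not tested. Leaving out 1 library gave 0 to 2 higher and 0 to 1 lower genes among the other enzymes at the unadjusted threshold, 0 to 3 lower genes among the control genes (0 without NR mouse 1, 3 or 5 or Vehicle mouse 3 or 4), 0 to 4 among uptake and export (0 without NR mouse 3 or 4 or Vehicle mouse 3 or 4) and 0 to 1 among oxysterol enzymes (0 without NR mouse 1 or 2 or Vehicle mouse 1, 2 or 4). For uptake and export, DESeq2 gave 2 lower genes and library totals 0. Same-numbered mice of the groups did not deviate together (r from -0.22 to 0.17). With the replicate number as a block, 0 of the 8 were called (lowest adjusted p = 0.694 by edgeR), 1655 genes passed the unadjusted threshold and the oxysterol count was 0. With the block, Mylip and Cyp11a1 no longer passed the unadjusted threshold (unadjusted p up to 0.0666 by edgeR). For deviations from the group means, 1 pair of genes passed the adjusted threshold, and Hmgcs1 and Dhcr7, Idi1 and Cyp51, and Fdft1 and Sqle had r of 0.81, 0.81 and 0.76. Fdps rests on 30 to 60 reads per library.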
